A study of Drosophila melanogaster with 2 samples.

Results

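The entries on chromosome X of the reproducible peak list of Capicua-GFP in whole adult Drosophila melanogaster are described here. All entries that the dm6 list places on X were taken, 893 of 7152, and set beside the 1299 entries on 2L, 1534 on 3L and 1821 on 3R. Each entry is an interval with a summit, the position of its highest signal, and a score, the strength that the authors' peak caller gave it. Chromatin immunoprecipitation followed by sequencing was done with an antibody against GFP on adult flies from a transgenic line that stably expresses Capicua with GFP at its C-terminus. All flies belonged to 1 group, sampled as biological replicates 1 and 3. Males and females were pooled in unstated proportions, the age of the flies was recorded as unknown, and no untagged or mock immunoprecipitation was analysed here. No read counts were used and library depth is unknown, and the intervals and p-values below cover counting error only.

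Capicua is an HMG-box repressor that is released from its targets when receptor tyrosine kinases activate ERK. It is known to recognise the octamers TGAATGAA and TGAATGGA. The X chromosome differs from the autosomes in copy number between the sexes: male flies carry fewer copies of X than female flies, and a complex of MSL proteins with the roX RNAs raises transcription of the male X. In a pool of both sexes X is therefore present in fewer copies than the autosomes. No sample separates the sexes, so the part of copy number in any difference between X and the autosomes was not tested.

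The 2 strongest X summits whose surroundings touch no annotated UTR are shown first, since neither holds a Capicua octamer. They were at Gs2, a glutamine synthetase gene (chrX:11423565-11423765), and in an intron of Myc, the growth-promoting transcription factor (chrX:3377533-3377733). Both windows run 100 bp to each side of the summit on the plus strand of the RefSeq Release 6 assembly, which is dm6. Capitals mark AACAGCTG, an E-box type octamer, and its overlapping reverse complement.
Gs2: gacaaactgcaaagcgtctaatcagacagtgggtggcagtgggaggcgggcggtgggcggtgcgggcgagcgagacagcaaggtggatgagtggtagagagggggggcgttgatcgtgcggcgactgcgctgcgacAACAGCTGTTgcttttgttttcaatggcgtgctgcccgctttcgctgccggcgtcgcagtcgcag
Myc: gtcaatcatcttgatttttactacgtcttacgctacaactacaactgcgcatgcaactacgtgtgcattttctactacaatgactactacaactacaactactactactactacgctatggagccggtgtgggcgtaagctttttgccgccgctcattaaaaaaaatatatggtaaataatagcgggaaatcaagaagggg

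Of the 893 X entries, 47 had a Capicua octamer within 100 bp of the summit, with 49 copies in all, 32 of TGAATGAA and 17 of TGAATGGA. The strongest X entry with one was at the CG14441 promoter, the entry of rank 12 on X. The other sites shown were in introns of Pits, where 2 separate summits each had an octamer within 4 bp, of CG32638, of upd3, which encodes a JAK/STAT cytokine, and of Bx, which encodes an LMO protein. They are printed as examples from the stronger X summits that have an octamer, each as 30 bases with the octamer in capitals, 5′ to 3′ on its own strand. The strands were plus for all but the Bx site.
CG14441 (chrX:6699455-6699484): tggtagttgagTGAATGAAtggtggaatga
CG32638 (chrX:13125775-13125804): acagaaagcgaTGAATGGAaagctatacgt
Pits, at 12574893 (chrX:12574882-12574911): gcaacgcgaaaTGAATGGAaaggaatgaaa
Pits, at 12579266 (chrX:12579255-12579284): acacgaagcgcTGAATGAAacgaaacaagg
upd3 (chrX:18282599-18282628): cgagcgcgacaTGAATGAAacgaagagcca
Bx (chrX:18524687-18524716): gatactatcgaTGAATGGAcggatgaatga
The scores of these entries were 732 at CG14441, 422 at CG32638, 421 and 418 in Pits, 349 in upd3 and 355 in Bx.

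The strongest X entry, chrX:1466465-1467395, scored 1151 and ranked 41 in the whole list. Its summit lay 207 bp from a start of CG14777 and within 1000 bp of the starts of O-fut2, a protein O-fucosyltransferase, and CG14778. The highest-scoring entry overlapping it by 1 bp or more in each replicate's own list scored 594 in replicate 3 and 568 in replicate 1 (581 ± 18, SD, n = 2). Replicate scores below are such matches, and neighbouring summits of 1 interval can share them. A weaker summit can thus carry the replicate scores of a stronger neighbour.

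The entry of rank 3 on X, with a score of 1047, lay in the 3′ UTR of Ssu72, which encodes a phosphatase of the RNA polymerase II tail (541 in replicate 3 and 507 in replicate 1). The Myc intronic entry scored 947, with 419 in replicate 3 and 533 in replicate 1. An entry at the shared promoter of Trf2, a TBP-related factor, and lawc scored 795, and its replicates were far apart, with 274 in replicate 3 and 536 in replicate 1. Dsp1, which like Capicua encodes an HMG-box protein, had a promoter entry of 605 (310 ± 18.6, SD, n = 2). That entry also lay within 1000 bp of a start of CG9921. An intronic entry in Smr, a corepressor gene, scored 573, with 276 in replicate 3 and 297 in replicate 1. Trf4-1, a poly(A) polymerase gene, had a promoter entry of 567. Tlk, the Tousled-like kinase gene, had an intronic entry of 676, with 477 in replicate 3 and 192 in replicate 1.

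The Gs2 promoter entry scored 1054, with 409 in replicate 3 and 644 in replicate 1. Gapdh2, a glycolytic dehydrogenase gene, had a promoter entry of 845, with 571 in replicate 3 and 272 in replicate 1, the widest replicate gap of the 20 strongest. At r, which encodes an enzyme of pyrimidine synthesis, the promoter entry scored 816 (406 ± 80.4, SD, n = 2). Ugalt, a UDP-galactose transporter gene, had a promoter entry of 778, with 502 in replicate 3 and 274 in replicate 1. The r entry also lay within 1000 bp of a start of Nemp, and the Ugalt entry within 1000 bp of a start of eIF2Bbeta. A summit with a score of 585 lay in the 3′ UTR of Lsd-2, which encodes a lipid droplet protein, and the nearest start was that of dob, a lipase gene. An intronic summit of Evi5, nearest to Sk1, a sphingosine kinase gene, scored 738 (368 ± 9.19, SD, n = 2).

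Usp2, a deubiquitinase gene, had 2 of the 20 strongest X summits, of 1021 and 723, in 1 interval (chrX:22455769-22457209). The higher lay 81 bp from a start of Usp2 and 943 bp from that of wap, and both replicates gave the interval nearly the same score, 518 in replicate 3 and 507 in replicate 1. In Drosophila, Wap is an adaptor of the Mnb kinase, and Mnb with Wap lowers the activity of Capicua. Among the remaining entries of the 20, lic, a kinase upstream of p38, had a promoter entry of 620, CG14441 one of 732, CG4593 an intergenic entry of 796 and CG32772 an intronic entry of 623. The CG14441 entry also lay within 1000 bp of a start of CG14440. The score in replicate 3 was the higher in 13 of the 20, and in the plot of the 20 entries the replicates lay far apart at Gapdh2, lawc, Tlk, Gs2 and Ugalt.

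**Figure D1:**
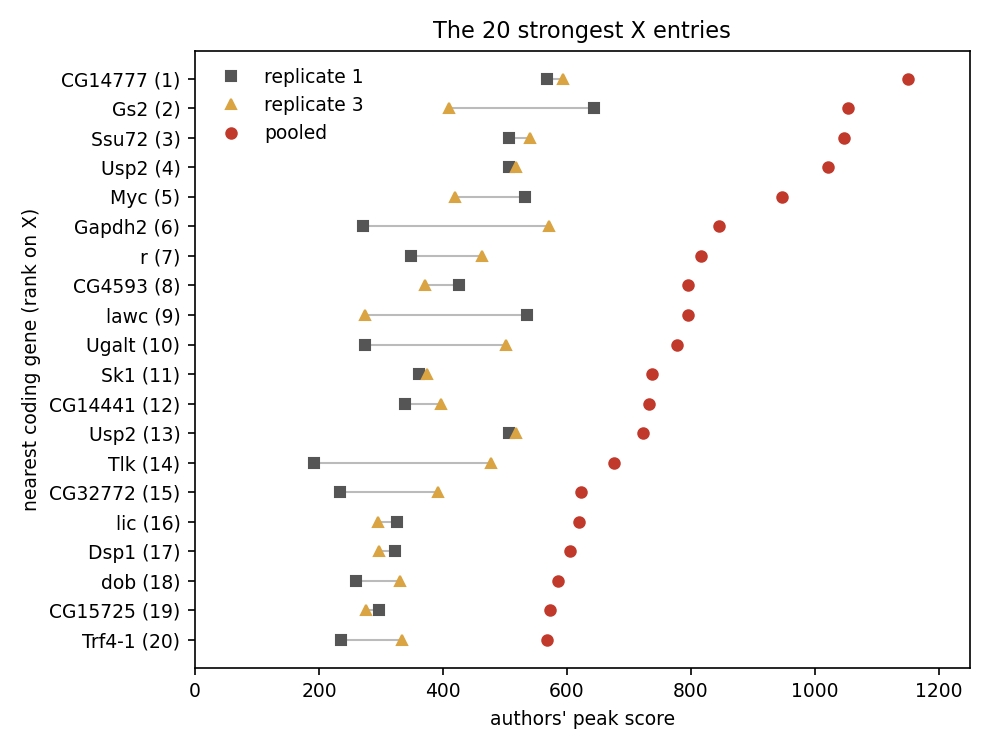
Scores of the 20 strongest X entries in the authors' pooled list (circles) and of the highest-scoring overlapping entries in the lists of replicate 1 (squares) and replicate 3 (triangles), by nearest protein-coding gene and rank on X. The pooled scores run from 567 to 1151, and the widest replicate gap is at Gapdh2.

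X held fewer entries for its length than any of the 3 autosomal arms. The reproducible list had 38.0 entries per Mb on X, against 55.2 on 2L, 54.8 on 3L and 56.8 on 3R. X made up 21.9% of the sequence of these 4 arms and 16.1% of their entries. The lengths, here and below, include arm ends without entries, which were longer on 3L and 3R than on X. The first summit on 3R was at 4197447, and the last on 3L was at 22890194 of 28110227 bp. On X the summits ran from 130980 to 22491595. Densities and shares of sequence were not computed without these ends. Counted as merged regions the densities were 33.7 per Mb on X, 47.5 on 2L, 46.6 on 3L and 48.2 on 3R. In the authors' relaxed pooled list, which holds 30000 entries, the gap was narrower, with 201 entries per Mb on X, 227 on 2L, 221 on 3L and 234 on 3R.

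An X entry of the relaxed pooled list was in the reproducible list less often than an autosomal one. This held for 893 of 4720 X entries (18.9%, 95% exact interval 17.8 to 20.1) and for 4654 of 19037 on 2L, 3L and 3R (24.4%, 23.8 to 25.1), by Fisher's exact test, two-sided, with an adjusted p of 1.35e-15. The autosomal arms were close to each other, at 24.3% on 2L, 24.8% on 3L and 24.2% on 3R. The p-values of the 4 such tests were adjusted by the Benjamini-Hochberg method, and entries are not independent of each other. The reproducible entries are the strongest of the pooled list: the lowest X score inside it was 115.9 and the highest X score outside it 115.8.

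Scores within the list were also lower on X. The median was 165 on X, 185 on 2L, 182 on 3L and 181 on 3R, and the upper quartile was 226 on X, 273 on 2L, 267 on 3L and 271 on 3R. Of the X entries 366 (41.0%, 37.7 to 44.3) scored above the median of the 4 arms, against 2407 of the autosomal entries (51.7%, 50.3 to 53.2), by Fisher's exact test, two-sided, with an adjusted p of 9.36e-09. Above a score of 1000 there were 4 entries on X, 22 on 2L, 13 on 3L and 21 on 3R. Above 500 there were 24 on X, 93 on 2L, 94 on 3L and 120 on 3R.

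At equal density of entries the X scores were lower than the autosomal ones, and the ratio came closer to 1 at the higher densities. These ratios describe the lists and were not tested. At 1 entry per Mb the score was 529 on X, 955 on 2L, 821 on 3L and 815 on 3R, and the X score was 0.631 times that of the 3 arms together. At 10 entries per Mb the scores were 221 on X, 327 on 2L, 309 on 3L and 318 on 3R, a ratio of 0.693. At 40 entries per Mb the ratio was 0.777, and at 160 it was 0.891. The scores at 160 were 37.8 on X and 42.4 on the 3 arms together. They lay near the lowest score of the pooled list on the 4 arms, 30.7, a shared floor that limits how far the ratio can lie from 1. In the plot of score at equal density X lay under each autosomal arm in all 3 lists.

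**Figure D2:**
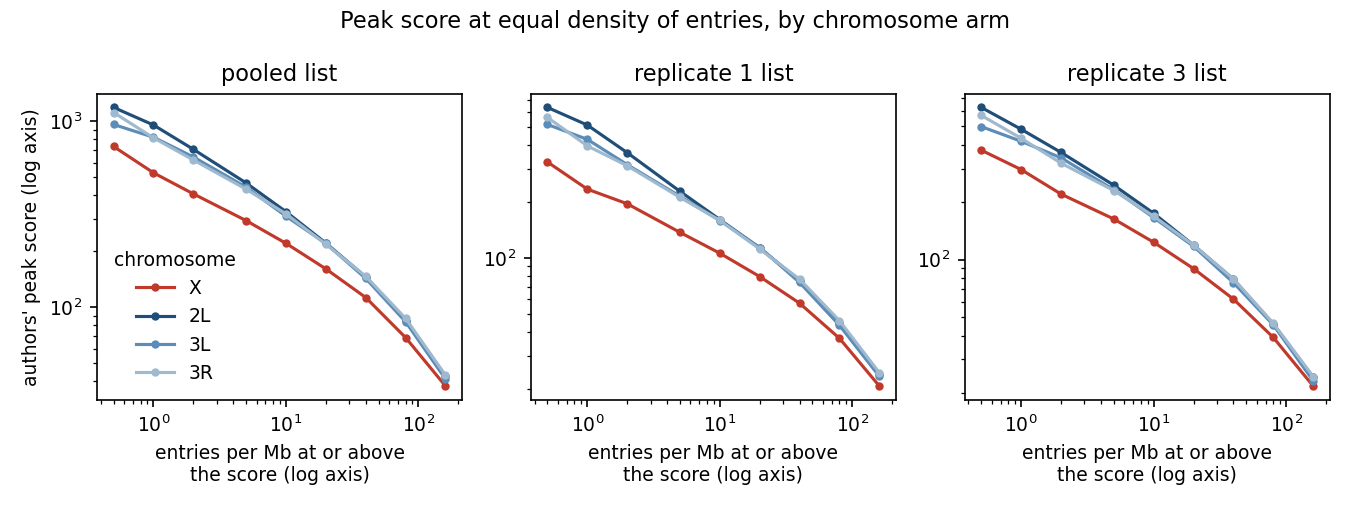
Authors' peak score (log axis) at which each arm reaches a given number of entries per Mb (log axis), in the pooled list and the lists of replicate 1 and replicate 3, on dm6. X lies below 2L, 3L and 3R at every density from 0.5 to 160 entries per Mb, with a ratio to the 3 arms together of 0.631 at 1 entry per Mb and 0.891 at 160 in the pooled list.

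The share of X among entries on the 4 arms depended on the rank of the score. It was 7.0% (2.86 to 13.9) among the 100 strongest of the pooled list, 7.25% (4.91 to 10.2) in ranks 101 to 500, 12.4% (9.64 to 15.6) in ranks 501 to 1000, 15.5% (13.3 to 17.9) in ranks 1001 to 2000 and 16.4% (14.8 to 18.1) in ranks 2001 to 4000. In ranks 8001 to 12000 it was 21.9% (20.7 to 23.2), close to the share of sequence, and in ranks 16001 to 20000 it was 20.3% (19.0 to 21.6). Among the 1000 strongest, X held 9.80% (8.03 to 11.8), while 2L held 26.7%, 3L 28.4% and 3R 35.1%.

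In each replicate's own list X also held a smaller share of the strongest entries than of the weaker ones. Among the 500 strongest entries of its list, X held 8.60% (6.29 to 11.4) in replicate 3 and 7.2% (5.09 to 9.83) in replicate 1. Among the 1000 strongest it held 11.4% (9.50 to 13.5) in replicate 3 and 9.10% (7.39 to 11.1) in replicate 1, and the 2 intervals overlap. In ranks 8001 to 12000 the shares were 22.4% (21.1 to 23.7) in replicate 3 and 21.2% (19.9 to 22.5) in replicate 1.

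**Figure D3:**
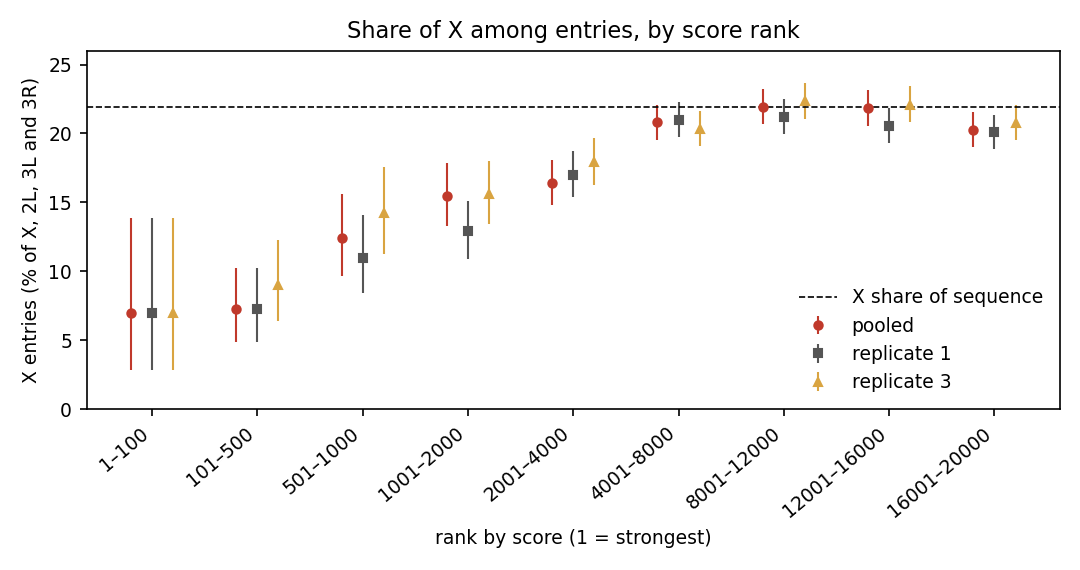
Share of X among entries on X, 2L, 3L and 3R by rank of score in the pooled list and the lists of replicate 1 and replicate 3, with 95% exact binomial intervals; the dashed line is the share of X in the sequence of the 4 arms. All 3 lists start at 7.0% in the 100 strongest and lie near the dashed line in ranks 8001 to 12000.

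The replicates were then compared entry by entry, each by the highest score among the overlapping entries of its list. All 893 X entries overlapped an entry of each replicate's list, as did 4632 of 4654 autosomal ones (99.5%). The median ratio of the score in replicate 3 to that in replicate 1 was 1.14 on X, 1.05 on 2L, 1.04 on 3L and 1.06 on 3R. The score in replicate 3 was the higher for 591 X entries (66.2%), and for 56.6% of entries on 2L, 55.3% on 3L and 56.5% on 3R. With 1 library for each replicate this has no replicate check, and whether the proportion of males differed between the replicates is not stated in the labels.

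No difference in promoter share between X and the autosomal arms passed the test on the pooled list. An entry was counted at a promoter when its summit lay within 1000 bp of a transcript start of a protein-coding gene. This held for 553 X entries (61.9%, 58.7 to 65.1) and for 2987 on the 3 autosomal arms (64.2%, 62.8 to 65.6), with 65.0% on 2L, 61.5% on 3L and 65.8% on 3R. The share of X lay between those of 3L and 2L, and Fisher's exact test, two-sided, gave an adjusted p of 0.280. The call depended on a library: without replicate 3, with the strongest entries of replicate 1 alone, the shares were 61.4% on X and 65.2% on the autosomal arms (Fisher's exact test, adjusted p = 0.0446). Introns held 30.3% of X entries (27.3 to 33.5), against 27.5% on 2L, 28.1% on 3L and 25.5% on 3R. Intergenic summits made up 4.82% on X (3.51 to 6.43), against 5.31% on 2L, 8.21% on 3L and 6.32% on 3R. Summits in 3′ UTRs made up 2.13% on X (1.29 to 3.30), 1.08% on 2L, 1.30% on 3L and 1.37% on 3R, and 3′ UTRs outside promoters covered 5.28% of X, 3.50% of 2L, 3.28% of 3L and 3.89% of 3R.

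Relative to the sequence of each part, X had fewer entries both at promoters and away from them. Promoter sequence held 119 entries per Mb on X, 168 on 2L, 178 on 3L and 186 on 3R. Introns held 30.4 per Mb on X, 45.0 on 2L, 44.5 on 3L and 35.8 on 3R. Intergenic sequence held 7.32 per Mb on X, 9.84 on 2L, 13.8 on 3L and 14.6 on 3R. The median score of promoter entries was 161 on X, 181 on 2L, 184 on 3L and 179 on 3R, and that of intronic entries 172 on X, 193 on 2L, 182 on 3L and 188 on 3R. These densities and medians were not tested.

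Of 2196 protein-coding genes on X, 512 had a promoter entry (23.3%, 21.6 to 25.1). Over X, 2L, 3L and 3R together the share was 29.5%, and by arm it was 29.5% (27.7 to 31.2) on 2L, 30.7% (29.0 to 32.5) on 3L and 32.4% (30.8 to 34.0) on 3R. A promoter entry with a score above 300 was found for 74 genes on X (3.37%), and for 6.77% of genes on 2L, 7.45% on 3L and 6.46% on 3R. Among genes with 1 annotated start, 14.8% on X had a promoter entry, and 24.2% on the 3 autosomal arms. Among genes with more starts, 42.1% had one on X and 51.7% on the autosomal arms. The gene lists below are set beside the 23.3% of all X genes, without matching for the number of starts. X also had fewer coding genes for its length, 93.5 per Mb, against 113 on 2L, 97.8 on 3L and 107 on 3R.

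**Figure D4:**
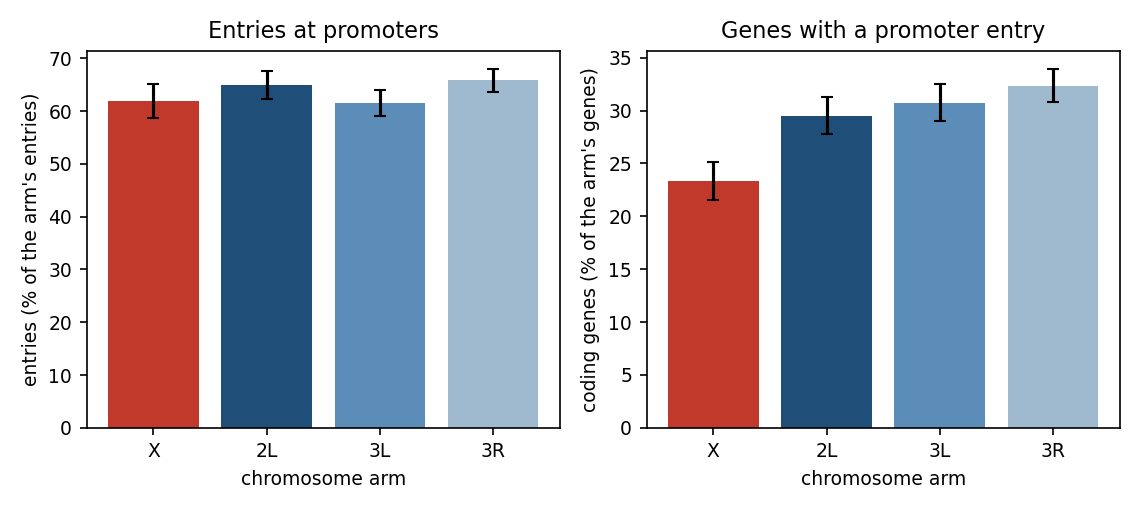
Left, share of each arm's entries at a promoter; right, share of each arm's protein-coding genes with a promoter entry; bars start at 0 and error bars are 95% exact binomial intervals. The share of entries at promoters is 61.5% to 65.8% on the 4 arms, while 23.3% of X genes and 29.5% to 32.4% of the genes of the other arms have a promoter entry.

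Genes of receptor tyrosine kinase signalling and regulators of Capicua on X were looked at as a list of 11, of which 6 had a promoter entry, where 23.3% of X genes did. Besides wap, these were csw, the SHP2-type phosphatase gene, with 463 (234 ± 39.6, SD, n = 2), Raf, the kinase gene of the ERK cascade, with 239 (124 ± 36.7, SD, n = 2), the receptor phosphatase genes Ptp4E with 226 and Ptp10D with 144, and Rala, a small GTPase gene, with 208. Raf held 7 summits in its body and promoters, and 1 of them, a promoter summit of 194, had a Capicua octamer. Both summits of Rala, at its promoter and in an intron, had an octamer too. The kinase gene mnb had 2 intronic summits, the higher with 195, and Pvf1, a ligand gene, had 3 in its body, the highest with 205. For Dsor1, the MEK gene, sev, a receptor gene, and vap, a RasGAP gene, no summit lay in the gene or its promoter, and the nearest were 45317 bp, 1643 bp and 85762 bp from a start. In the relaxed list their promoter entries scored 89.4 for Dsor1, 76.5 for sev and 42.0 for vap.

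Of 9 genes of dosage compensation and sex determination, 2 had a promoter summit, counting starts of the noncoding roX genes too, where 23.3% of coding genes on X had one. Sxl, the switch gene of sex determination, had promoter summits of up to 196 and an intronic summit of 216 with a Capicua octamer. The other was roX1, which encodes an RNA of the MSL complex, with 151 (79.3 ± 4.25 in the replicates, SD, n = 2) at 699 bp. The second RNA gene, roX2, had its nearest summit 2267 bp away, with 120, and a relaxed promoter entry of 73.0. For mof, the acetyltransferase gene of the complex, the nearest was 2848 bp away, with 176. No summit lay within 4000 bp of a start of sisA, sc, run, upd1 or snf.

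Of 12 genes of Notch, Wnt, JAK-STAT, Hippo and BMP signalling, 4 had a promoter entry, against the 23.3% of all X genes. These were brk, a repressor gene of the BMP pathway, with 270 (136 ± 4.04, SD, n = 2), sgg, the GSK3 gene, with 241, dome, the JAK-STAT receptor gene, with 210, and sd, the TEAD factor gene of the Hippo pathway, with 206. The sgg gene held 6 summits in its body and promoters. The intronic upd3 entry of 349, with its octamer, was 5330 bp from the nearest start, and arm, the beta-catenin gene, had 1 intronic summit of 123. Neither N nor sog, dx, dsh, hop or upd2 had a summit in the gene or its promoter.

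Of 10 genes of chromatin and growth, 6 had a promoter entry, against the 23.3% of all X genes. Of these, ph-d, ph-p, fs(1)h, nej and Smr have more than 1 annotated start, and 42.1% of such X genes had a promoter entry. The Polycomb genes ph-d and ph-p had 361 (184 ± 13.8, SD, n = 2) and 297, although reads of these near-identical copies may not be told apart. The BET protein gene fs(1)h had 4 promoter summits, up to 301, nej, the CBP gene, had 161, Myc 150 and Smr 145. Myc and Smr thus had their strongest summits in introns, at 947 and 573. The Smr promoter summit had a Capicua octamer, as did an intronic nej summit of 163. No summit lay in or at the promoter of trr, z or Bap111, and e(y)3 had 2 intronic summits of up to 213.

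Of 6 genes of the clock, metabolism and yolk, 4 had a promoter entry, where 23.3% of X genes did. These were Zw, the glucose-6-phosphate dehydrogenase gene, with 329 (166 ± 20.8, SD, n = 2), per, a clock gene, with 186, Yp3, a yolk protein gene, with 151 and an octamer, and Pgd, the gene of another dehydrogenase of the pentose phosphate pathway, with 131. The yolk genes Yp1 and Yp2 had none, and their nearest summits were 158175 bp and 159391 bp away. Of 10 patterning genes and classic loci, ct alone had a promoter entry, of 130, beside the same 23.3%, and y, w, ac, l(1)sc, oc, btd, gt, B-H1 and B-H2 had none. Of 14 ribosomal protein genes on X, taken by name, 10 had a promoter entry, again beside 23.3% of X genes. Their scores ran from 134 to 267, with the highest at RpL22 (267), RpL17 (199), RpS14b (173) and RpS28b (168). The RpS14b entry lay 902 bp from a start of the gene, past the gene's end, and its interval covered the start of Ubr3. Another RpS14b summit, 71 bp from a start, scored 122. The entries of RpS5a and RpS19a, 926 bp and 750 bp from a start, also lay within 1000 bp of starts of Chchd2 and Rok.

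Several X genes held many summits in their bodies and promoters, and these were named after their values were seen. Tlk held 17, up to 676, over 69764 bp. CHES-1-like, a forkhead factor gene, held 15, up to 562, over 27048 bp, and Smr held 13. Mnt, whose product competes with Myc for their shared partner, held 12, up to 449, 10 of them in introns. Tis11, an RNA-binding protein gene, held 9, and gce, a juvenile hormone receptor gene, held 8, up to 269. On X, 201 entries (22.5%) shared a merged region with another summit, and 28.8% on the 3 autosomal arms.

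Capicua octamers showed no detectable difference in frequency between X and autosomal summits. They lay within 100 bp of 47 X summits (5.26%, 3.89 to 6.94) and of 244 autosomal ones (5.24%, 4.62 to 5.92), with 4.70% on 2L, 6.0% on 3L and 5.0% on 3R. Fisher's exact test, two-sided, gave an adjusted p of 1.00, and the sign of this difference changed with the processing. Of all windows of 201 bp on the arms, 2.51% held an octamer on X and 2.47% on the 3 autosomal arms. The copies lay a median of 50 bp from the X summits, and 16 of 49 within 25 bp. Only copies within 100 bp were searched, and copies spread evenly over that window would also have a median near 50 bp. These distances therefore do not show that octamers lie close to summits.

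Among the strongest entries octamers were counted on each arm. Of the 20 strongest on X, 1 had an octamer (5.0%, 0.127 to 24.9), the CG14441 entry, against 4 of 20 on 2L, 10 on 3L and 6 on 3R. Of the 100 strongest of each arm, 12 had one on X, 13 on 2L, 22 on 3L and 14 on 3R. Above a score of 500, 1 of 24 X entries had an octamer (4.17%), and 11.8% of entries on 2L, 23.4% on 3L and 12.5% on 3R. Above a score of 300 it was 12 of 108 X entries (11.1%), 9.03% on 2L, 14.7% on 3L and 7.48% on 3R. These counts are small, the cut-offs were set after the values were seen, and the differences were not tested.

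CA repeats were found in a larger share of windows on X than on the autosomal arms, both at summits and over the arms as a whole, a description that was not tested. The octamer CACACACA, on either strand, was within 100 bp of 152 X summits (17.0%, 14.6 to 19.6), against 10.2% (8.64 to 12.0) on 2L, 8.87% (7.49 to 10.4) on 3L and 9.45% (8.14 to 10.9) on 3R. In all windows of 201 bp it was found in 5.77% on X, 3.84% on 2L, 3.52% on 3L and 4.00% on 3R. The share at summits was 2.95 times that of all windows on X, 2.67 times on 2L, 2.52 times on 3L and 2.36 times on 3R. Among X entries above the median score of the 4 arms 20.2% held one, and among the others 14.8%. On the 3 autosomal arms together the share was also higher above the median, at 11.8%, against 7.03% among the others. The window of the r promoter entry (chrX:16655784-16655984) is shown as an example, plus strand, with runs of at least 4 CA units or their reverse complement in capitals.
r: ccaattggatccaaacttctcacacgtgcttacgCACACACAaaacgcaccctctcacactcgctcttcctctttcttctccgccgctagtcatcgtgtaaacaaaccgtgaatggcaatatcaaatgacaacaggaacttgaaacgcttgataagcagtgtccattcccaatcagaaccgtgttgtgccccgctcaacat

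For 4 other motifs the share at X summits was below or above the autosomal one. The E-box type AACAGCTG was at 3.14% of X summits (2.09 to 4.50), against 5.23% (4.09 to 6.59) on 2L, 4.82% (3.81 to 6.02) on 3L and 5.33% (4.34 to 6.46) on 3R, while all windows held it in 1.17% on X and 1.19% on the 3 autosomal arms. The GATA type CTGATAAG was at 3.47% of X summits (2.37 to 4.89) and 4.73% (4.14 to 5.38) of autosomal ones, with 0.578% and 0.725% of all windows. The share at summits was thus 6.01 times that of all windows on X and 6.52 times on the autosomal arms. GAGAGAGA was at 5.71% (4.28 to 7.44) on X and 4.19% (3.63 to 4.81) on the autosomal arms, with 1.54% and 1.05% of all windows. For GAGAGAGA the share at summits was 3.72 times that of all windows on X and 3.98 times on the autosomal arms. TATCGATA, the element recognised by the factor Dref, was at 3.36% (2.28 to 4.76) on X and 2.56% (2.12 to 3.05) on the autosomal arms, with 0.706% and 0.495% of all windows. Its share at summits was thus 4.76 times that of all windows on X and 5.17 times on the autosomal arms. By arm TATCGATA was at 3.23% of summits on 2L, 1.89% on 3L and 2.64% on 3R. These were 6.48, 3.62 and 5.64 times the shares of all windows, so the ratio of X lay within the autosomal range. Both strands were searched, a match is a description and not a site, and these motifs, picked with earlier results of these data known, were not tested.

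**Figure D5:**
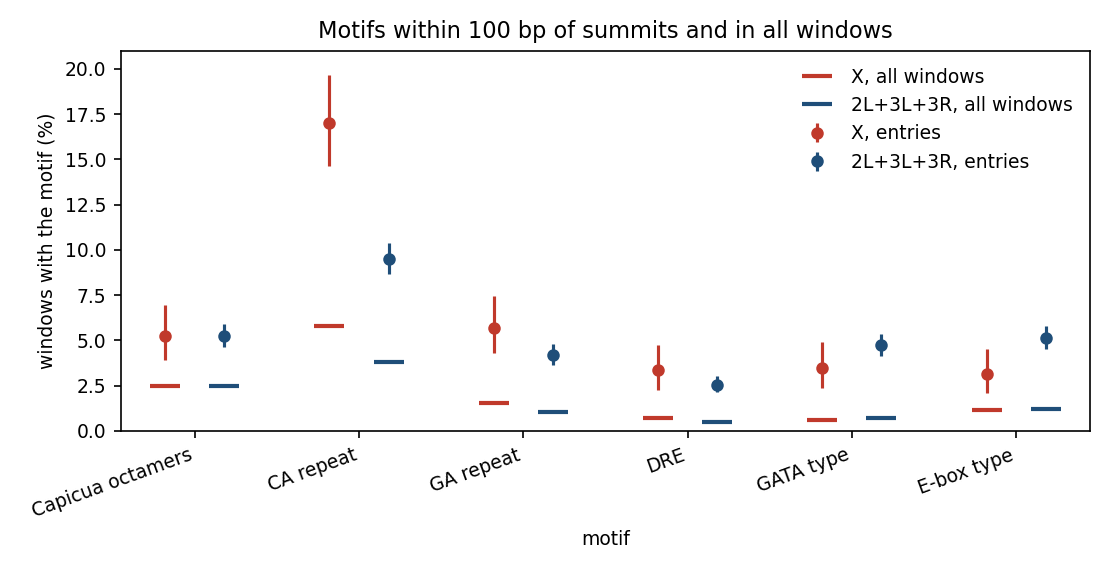
Share of 201-bp windows with each motif, for windows centred on summits (circles, with 95% exact binomial intervals) and for all windows of the arms (dashes), on X and on 2L, 3L and 3R together. Capicua octamers are at 5.26% of X and 5.24% of autosomal summits, and the CA repeat is at 17.0% of X and 9.48% of autosomal summits.

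Entries were unevenly spread along X and along the autosomal arms. Of the 23 full bins of 1 Mb, the densest, from 13000001 to 14000000, held 71 entries and the median bin 41, while the bins starting at 14000001, 20000001 and 22000001 held 8 each. The full bins held from 2 to 118 entries on 2L, from 0 to 111 on 3L and from 0 to 136 on 3R. The bin from 13000001 held 102 coding genes and that from 14000001 held 88. The widest stretch between neighbouring summits on X, from 21374181 to 22449321, was 1075140 bp long, against 540030 bp on 2L, 387231 bp on 3L and 407945 bp on 3R. These lengths leave out the ends of the arms, where longer stretches without a summit lay on the autosomes: the first summit on 3R was at 4197447 and the last on 3L at 22890194. The X stretch held 39 coding genes with a start and 20 relaxed entries, the highest with a score of 108. The Usp2 and wap entry lay just beyond it, and the last summit on X was at 22491595.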

How the data were processed

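Per the labels, chromatin of whole adult flies was sheared by sonication to 200 to 800 bp. Per the text list deposited with the files, the authors derived relaxed peak lists of 30000 entries for each replicate and for both pooled, and from these a reproducible list at a cut-off of irreproducible discovery rate. A control alignment was used for the relaxed lists. The reproducible entries on dm6 were the 7152 highest-scoring of the pooled list. Which peak caller and aligner were run is not given in the sources used here. Scores are as the authors deposited them, and no scaling for depth is stated. The deposited −log10 of the q-value is at its ceiling of 4.51 in all reproducible entries and was not used. Depth is unknown.

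Coordinates are dm6, 1-based. Sequence came from RefSeq Release 6 and genes from Ensembl release 115. The entries on 2R and 4 were not used in comparisons. Parts of genes were assigned with promoters first, then 5′ UTRs, coding exons and 3′ UTRs, then introns, and the rest as intergenic. Densities use non-N bases. All windows means non-overlapping windows of 201 bp. Shares have exact Clopper-Pearson 95% intervals. The 4 tests were Fisher's exact tests, two-sided, with Benjamini-Hochberg adjustment and a threshold of 0.05. The promoter test alone was tried on simulated data, with summits placed at random and some moved to starts, and the outcome is not reported here. Alternatives were 1 replicate's strongest 7152 entries, 1 entry per merged region, the stronger 50% of entries, other windows, any gene's starts and the dm3 lists.

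Named genes are those with the start nearest to the 20 strongest X entries and the X members of 7 lists, ribosomal protein genes by name pattern; phl and the roX genes were matched by synonym. The members and lists were chosen with earlier results of these data known. How the 2 biological replicates were reared and collected is not in the labels, and their spread can include technical variation. Some items are not reported here. Tools were matplotlib 3.10.9, pandas 2.3.3, numpy 2.4.6 and scipy 1.17.1 under Python 3.11.15.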

Additional observations from a re-analysis of the deposited data

How the results depend on the processing

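Values are X minus the 3 autosomal arms in percentage points, unless stated. The lower share of X entries in the reproducible list (-5.53) and above the median score (-10.7) kept direction and call under all 4 alternatives of each. The ranges were -9.44 to -5.27 and -10.5 to -8.33. The -9.44 came from the dm3 lists, where the pooled relaxed list held 5726 X entries, against 4720 on dm6. The promoter difference (-2.26) stayed below 0 under its 7 alternatives and ran from -3.78 to -2.34 with either replicate left out. It was -4.22 in the stronger 50% of entries, -1.26 within 500 bp and -1.39 within 2000 bp of a start, and it passed only without replicate 3. Adjusted p, by Fisher's exact test, was 0.0446 to 0.680. With the entries split into quintiles by score, the promoter share was lower on X in quintiles 1 to 4. In quintile 5, the weakest, it was 69.3% (62.9 to 75.1) on X and 63.1% (59.9 to 66.3) on the autosomal arms. The quintiles were not tested. The octamer difference (0.0204) ran from -0.929 to 0.649 with either replicate left out. It was -0.284 with 1 entry per merged region, -0.571 within 50 bp and -0.192 within 200 bp of the summit, and no alternative passed. The cause was not tested. The share of X genes with a promoter entry (23.3%) was 19.5% within 500 bp and 27.6% within 2000 bp of a start, and the autosomal share was 27.2% and 36.4%. The X share of the 1000 strongest was 9.10% to 11.4% with either replicate left out and 10% in the dm3 list, alternatives chosen after seeing the data. No paired analysis was possible because the series has 1 group. Scores from 2 libraries limit what can be said of any single entry.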

Other observations

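In the pooled dm3 list X held 7.0% of the 100 strongest entries of the 4 arms, as in the pooled dm6 list, and 29.5% (28.1 to 31.0) of the entries from rank 20001 down, against 19.8% (18.6 to 21.1) there in the dm6 list. In the replicates' dm3 lists the share in these last ranks was 30.1% in replicate 3 and 27.1% in replicate 1, against 21.7% and 20.4% in their dm6 lists. The pooled relaxed list held 5726 X entries on dm3 and 4720 on dm6. The cause was not tested.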
